A study of Mus musculus with 278 samples.

Results

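The cells described here are the 60 dimmest of 278 single spermatogonia that carried an EGFP reporter of Id4. They are the cells whose label places them in quartile Q4 of EGFP brightness, a label set from images of the captured cells and not from their RNA. They came from 5 preparations, with 4, 15, 7, 15 and 19 Q4 cells in preparations 1 to 5. They were set against the 218 cells of quartiles Q1 to Q3, pooled within the same preparations (22, 47, 30, 60 and 59 cells). All cells came from untreated ID4-EGFP mice at postnatal day 6, and the testes of several pups were pooled for each preparation. The strain and the kind of reporter allele were not stated. Testes were digested with trypsin, EGFP-positive cells were sorted, and single cells were captured on a microfluidic chip that takes cells of a set size range, imaged and converted to cDNA from polyA RNA. Dead cells, multiplets and cells with debris were left out by the authors after imaging. Every cell had passed a sort for EGFP, so Q4 is the dim end of an EGFP-positive population.

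ID4 is a helix-loop-helix protein without a DNA-binding basic region. Proteins of its family pair with E proteins and keep them off E-boxes, the short sites written CANNTG. In the mouse testis, Id4 is known from undifferentiated spermatogonia, among them the stem cells that respond to GDNF, a growth factor of Sertoli cells, through the receptor subunits GFRA1 and RET. Spermatogonia that respond to retinoic acid gain Stra8 and Kit, and the helix-loop-helix factor SOHLH1 is needed for that step. The promoters of Gfra1, of Dusp6, which encodes a phosphatase of ERK kinases and is induced by growth factor signalling, and of Sohlh1 are shown because these genes recur in the results and differ in how many E-boxes they hold. The sequences are from RefSeq (GRCm38.p6), run 5′ to 3′ from 250 bases before to 50 bases after the annotated start, and have E-boxes in capitals.
Gfra1 promoter (chr19:58455349-58455648, minus strand): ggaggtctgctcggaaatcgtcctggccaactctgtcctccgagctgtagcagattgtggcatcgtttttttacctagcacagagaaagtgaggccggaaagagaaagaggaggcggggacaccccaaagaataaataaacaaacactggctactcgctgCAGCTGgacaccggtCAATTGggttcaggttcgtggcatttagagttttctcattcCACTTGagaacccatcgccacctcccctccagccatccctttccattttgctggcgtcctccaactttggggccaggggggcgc
Dusp6 promoter (chr10:99262981-99263280, plus strand): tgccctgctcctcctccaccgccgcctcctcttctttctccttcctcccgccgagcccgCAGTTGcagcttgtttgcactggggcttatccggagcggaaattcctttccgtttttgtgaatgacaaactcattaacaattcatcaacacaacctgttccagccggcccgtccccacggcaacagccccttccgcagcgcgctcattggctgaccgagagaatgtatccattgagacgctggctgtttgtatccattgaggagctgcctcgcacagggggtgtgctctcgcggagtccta
Sohlh1 promoter (chr2:25847199-25847498, minus strand): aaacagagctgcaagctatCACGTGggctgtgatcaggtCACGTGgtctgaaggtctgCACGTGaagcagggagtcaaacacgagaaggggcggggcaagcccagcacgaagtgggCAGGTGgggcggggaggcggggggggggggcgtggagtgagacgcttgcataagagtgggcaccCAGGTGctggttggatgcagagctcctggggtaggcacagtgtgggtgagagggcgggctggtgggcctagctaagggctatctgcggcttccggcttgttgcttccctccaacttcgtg
CANNTG reads the same on both strands. It occurred 3 times in the Gfra1 window, 1 time in the Dusp6 window and 5 times in the Sohlh1 window. Id4 itself, at its RefSeq start, had 0. The RefSeq start of Gfra1 lies 511 bases downstream of the start that GENCODE gives, so that the whole Gfra1 window lies within the GENCODE gene. The RefSeq start of Id4 lies 112 bases upstream of its GENCODE start, and for Dusp6 and Sohlh1 both annotations give the same start. Of 32817 distinct mouse promoter windows of the same length, 72.3% held at least 1, so that a match in a single window describes the sequence and no more.

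The values were FPKM, fragments scaled for transcript length and library size, and a gene was called detected in a cell at an FPKM of at least 1. The matrix gives no read counts. Depth, estimated from the steps between low FPKM values, was 590523 ± 172249 fragments per Q4 cell and 611940 ± 120106 per cell of Q1 to Q3 (mean of 5 preparation means ± SD), and the difference was within the spread of preparations (exact sign permutation test, two-sided, p = 0.5625). Q4 cells carried between 8 and 13 of 13 germ cell markers, with a median of 13. Under an FPKM of 1 in every Q4 cell were 4 of 9 Sertoli markers (Amh, Gata4, Inha, Fshr). So were 4 of 5 Leydig markers (Cyp11a1, Cyp17a1, Hsd3b1, Insl3) and 3 of 5 peritubular myoid markers (Acta2, Myh11, Des). Of 5 macrophage markers in the matrix, 4 were as low (Csf1r, Ptprc, C1qa, C1qb). The other Sertoli markers were detected in Q4 cells: Rhox5 in 9, Clu in 6, Wt1 in 5, Sox9 in 2 and Cldn11 in 1. Star (Leydig) was in 11 Q4 cells, Tagln and Cnn1 (myoid) in 3 and 1, and Cd68 (macrophage) in 6. The summed level of 9 Sertoli markers was 0.459 to 18.4 FPKM over the preparations in Q4, against 16.1 to 37.6 FPKM in Q1 to Q3. The 4 endothelial markers summed to 0.319 to 23.8 FPKM in Q4, against 1.29 to 2.04 FPKM in Q1 to Q3, the only one of these somatic sums whose highest value lay in Q4. The part of such transcripts in any result was not tested.

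Of the 4 markers that go with the dim label, Uchl1 was higher in Q4 in 5 of 5 preparations, and Stra8, Sohlh1 and Kit had mixed directions. Stra8, which is induced by retinoic acid and precedes meiosis, was detected in 45 of 60 Q4 cells and 167 of 218 cells of Q1 to Q3, and its mean level was 131 ± 21.9 FPKM in Q4 and 129 ± 90.04 FPKM in Q1 to Q3 (SD, n = 5 preparations). Sohlh1 averaged 144 ± 57.2 FPKM in Q4 and 108 ± 29.9 FPKM in Q1 to Q3. Kit, the receptor that marks differentiating spermatogonia, was detected in 30 of 60 Q4 cells and 134 of 218 brighter cells. On the log2 scale Kit was higher in Q4 in 2 preparations and lower in 3, whereas Stra8 and Sohlh1 were higher in 3 and lower in 2. Uchl1, a ubiquitin hydrolase of all spermatogonia, was in every cell. In Q4 it had 677, 445, 669, 515 and 511.5 FPKM in preparations 1 to 5, against 424, 444, 349, 465 and 432 FPKM in Q1 to Q3. Q4 was thus above Q1 to Q3 in 5 of 5 preparations, but by only a small margin in the second. On the scale of mean log2(FPKM + 1) over cells the Uchl1 difference was 0.35 ± 0.14 (SE; limma, adjusted p = 0.432).

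Q4 cells contained fewer detected genes on average than brighter cells in each of the 5 preparations. The means in preparations 1 to 5 were 7110, 6864, 3889, 5467 and 5330 genes per Q4 cell, against 7155, 6977, 4565, 6222 and 6051 genes per cell of Q1 to Q3. The gap was small in preparations 1 and 2 and wide in preparations 3, 4 and 5. Its mean was -462 ± 351 genes (SD, n = 5), lower in 5 of 5, with p = 0.063 in the exact sign permutation test (two-sided), the smallest p that 5 preparations can give. Against Q3 alone the mean gap was -374 ± 329 genes, lower in 4 of 5 preparations (exact sign permutation test, two-sided, p = 0.125). Preparation 3 had the fewest detected genes in both classes.

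**Figure D1:**
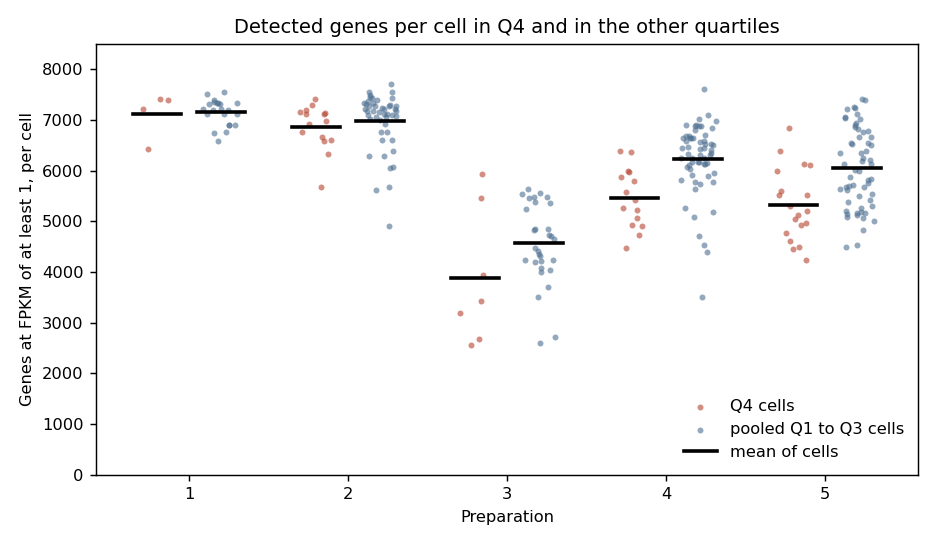
Number of genes at FPKM of at least 1 in each cell (y axis) by preparation (x axis), with Q4 cells left of the pooled cells of Q1 to Q3 and the mean over cells as a bar. The Q4 mean lies below the other mean in each of the 5 preparations, by 45.7 genes in preparation 1 and by 755 genes in preparation 4.

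A gene-by-gene comparison asked which transcripts differ between the dim cells and all others. Over 10452 genes detected in at least 10% of cells, limma with preparation as a block gave 0 genes at an adjusted p under 0.05 (0% of genes tested), in either direction. Without adjustment, 70 genes (0.67%) were higher and 1025 (9.81%) lower in Q4 at p under 0.05. By sign alone, 143 genes (1.37%) were higher and 910 (8.71%) lower in 5 of 5 preparations. The median difference over all genes was -0.16 on the log2 scale: by preparation it was -0.02 in preparations 1 and 2, and -0.26, -0.22 and -0.22 in preparations 3, 4 and 5. When each Q4 cell was matched with a brighter cell of its preparation that had a similar number of detected genes, the median difference was 0.01, and 288 genes were higher and 288 lower at unadjusted p under 0.05. No gene passed adjustment there either. Genes are therefore given below with their values in each preparation, as not passing.

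The genes of smallest p among those lower in 5 of 5 preparations included members of stem cell and growth factor programmes. Cdh1, encoding the adhesion molecule E-cadherin (chr8:106603351-106670246, plus strand), was detected in 12 of 60 Q4 cells and 97 of 218 brighter cells. Its mean level in Q4 was 2.10, 5.48, 1.348, 0.653 and 0.174 FPKM in preparations 1 to 5, against 9.47, 13.4, 19.5, 7.78 and 9.31 FPKM in Q1 to Q3. The Q4 means did not overlap those of Q1 to Q3, and Q4 was also the lowest of the 4 quartiles in every preparation. The difference was -1.11 ± 0.22 (SE; limma, adjusted p = 0.229).

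Dusp6 (chr10:99263231-99267489, plus strand) was detected in 36 of 60 Q4 cells and 187 of 218 brighter cells. Its mean log2 level was 3.07, 4.22, 1.82, 2.86 and 2.44 in Q4, against 4.99, 4.82, 4.48, 4.57 and 4.02 in Q1 to Q3. Only preparation 2 of Q4 reached the range of the brighter cells, and the difference was -1.53 ± 0.32 (SE; limma, adjusted p = 0.229).

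Upf3b, a factor of nonsense-mediated mRNA decay on the X chromosome, had the smallest p of all genes (2.1e-05 unadjusted, limma adjusted p = 0.219). It was detected in 28 of 60 Q4 cells and 176 of 218 brighter cells. Its mean log2 level was 3.47, 3.36, 0.88, 2.77 and 2.60 in Q4, against 5.45, 4.60, 3.21, 4.76 and 4.45 in Q1 to Q3, a difference of -1.80 ± 0.30 (SE). The other genes of this group were Chka, the choline kinase that starts phosphatidylcholine synthesis (-1.0015 ± 0.20), Rab4a, a GTPase of endosome recycling (-0.96 ± 0.20), Mapk11, a p38 kinase (-1.02 ± 0.21), Chp1, a calcineurin-like calcium-binding protein (-1.57 ± 0.34), Smoc2, a secreted matrix protein (-1.51 ± 0.33), Atp1b2, a sodium pump subunit (-0.88 ± 0.19), and Snrpn (-1.66 ± 0.35), a paternally expressed imprinted gene. Snrpn overlaps Snurf on its own strand, so their reads cannot be told apart with certainty. Rab4a was detected in 5 of 60 Q4 cells and 63 of 218 brighter cells, and in preparations 1, 3 and 5 it was listed at an FPKM under 1 in every Q4 cell.

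The Id4 transcript was lower in Q4 in 5 of 5 preparations. It was detected in 16 of 60 Q4 cells and 100 of 218 cells of Q1 to Q3. By preparation, the share was 25, 33.3, 0, 26.7 and 31.6% of Q4 cells, against 54.5, 59.6, 30, 43.3 and 42.4% of brighter cells. The log2 difference was -0.93 ± 0.22 (SE; limma, adjusted p = 0.229), and it was -0.97 in matched cells. Against Q3 alone, Id4 was lower in 3 of 5 preparations. Id4 overlaps antisense transcripts, and the sources do not say whether strand was used in counting.

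Nearly all tested genes associated with stem cells had lower values in Q4, and none passed adjustment. Of 27 listed genes 21 were tested, and 20 of these had a difference below 0, beside 72.1% of all genes. Of the 21, 7 (33.3%) were lower and 0 higher in 5 of 5 preparations, beside 8.71% of all genes lower, 8 were lower at unadjusted p under 0.05, and 0 passed adjustment. The median was -0.58, beside -0.16 over all genes, and lay below the all-gene median in each preparation. Gfra1 (chr19:58235604-58455909, minus strand) had mean log2 levels of 4.39, 3.51, 1.91, 1.98 and 1.42 in Q4, against 5.22, 3.89, 4.51, 3.17 and 3.32 in Q1 to Q3. The Q4 values of preparations 1 and 2 reached the range of the brighter cells, and the difference was -1.355 ± 0.34 (SE; limma, adjusted p = 0.252). In matched cells it was -0.56. Tcl1, a coactivator of AKT kinase, had 91.8 ± 48.9 FPKM in Q4 and 171 ± 22.6 FPKM in Q1 to Q3, with a difference of -1.76 ± 0.40. Nanos2 (-0.35 ± 0.17), an RNA-binding protein that maintains stem cells, and Zbtb16 (-0.39 ± 0.27), which encodes the repressor PLZF, were lower in 5 of 5 preparations by less. Zbtb16 was still detected in 54 of 60 Q4 cells.

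The response to GDNF and FGF signalling shares Gfra1, Dusp6, Etv5 and other genes with the stem cell list and is not independent of it. Of its 24 tested genes 9 (37.5%) were lower and 0 higher in 5 of 5 preparations, beside 8.71% of all genes lower. Their median was -0.44, beside -0.16 over all genes. Etv5, an ETS factor induced by GDNF, was lower in 4 of 5 preparations (-1.16 ± 0.35). Of 17 tested immediate early and heat shock genes 5 (29.4%) were lower and 0 higher in 5 of 5 preparations, with a median of -0.31. In matched cells the median of this list was -0.06, beside 0.01 over all genes. Egr1, a zinc finger factor induced within minutes of growth factor stimulation, was detected in 48 of 60 Q4 cells and 196 of 218 brighter cells and differed by -1.02 ± 0.26. Fos, a subunit of AP-1, was detected in 8 of 60 and 85 of 218 cells and differed by -0.93 ± 0.25. Nr4a1, an orphan nuclear receptor, differed by -0.66 ± 0.21. The immediate early genes also respond to tissue dissociation, and all cells of a preparation went through the same digestion. The part of dissociation in these differences was not tested. Without preparation 5 the median of the immediate early and heat shock list, taken relative to all genes, was 0.0058.

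Progenitor and differentiation genes had no member with 1 direction in 5 of 5 preparations. Of 9 tested progenitor genes 5 had differences above 0, 0 had 1 direction in 5 of 5 preparations, and the median was 0.15, which came to 0.0013 without preparation 3 and 0.026 without preparation 2, and was -0.07 over the 8 genes detected in 25% of cells. Upp1, uridine phosphorylase, had 83.9 ± 39.3 FPKM in Q4 and 32.6 ± 10.0 FPKM in Q1 to Q3. It was detected in 75, 80, 42.9, 80 and 26.3% of Q4 cells, against 54.5, 53.2, 20, 48.3 and 42.4% of brighter cells. Preparation 5 was the exception, and the log2 difference was 1.49 ± 0.39 (SE; limma, adjusted p = 0.274). Neurog3, a helix-loop-helix factor of progenitors, was detected in 9 of 60 Q4 cells and 19 of 218 brighter cells (0.42 ± 0.18). Of 12 tested genes of differentiating spermatogonia 0 had 1 direction in 5 of 5 preparations, and the median was 0.05, with -0.02 without preparation 2, 0.0020 without preparation 3, -0.06 without preparation 5 and -0.11 at the 75th percentile scaling. The 15 genes of retinoic acid handling and response had 7 differences above 0 and 8 below, with a median of -0.10 (-0.18 to 0.05 with 1 preparation left out).

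**Figure D2:**
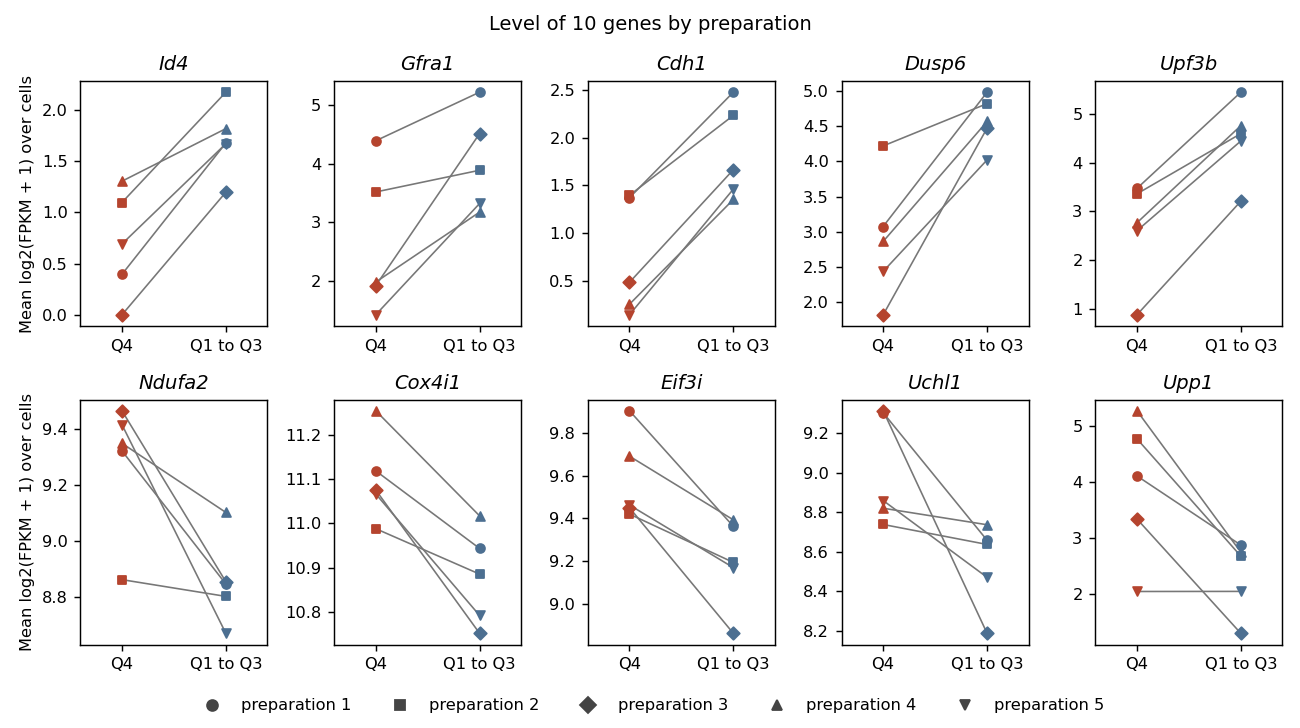
Mean log2(FPKM + 1) over the cells of a preparation (y axis) in Q4 and in pooled Q1 to Q3, with a symbol for each of the 5 preparations and a line joining values of the same preparation. Id4, Gfra1, Cdh1, Dusp6 and Upf3b lie lower in Q4 in each preparation, Ndufa2, Cox4i1, Eif3i and Uchl1 lie higher, and Upp1 lies higher in 4 of 5.

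Some abundant transcripts had higher values in Q4 in 5 of 5 preparations although fewer genes were detected; none passed adjustment. Cox4i1, a subunit of cytochrome c oxidase, had 2239, 2079, 2222, 2544 and 2248 FPKM in Q4, against 2019, 1960, 1840, 2131 and 1854 FPKM in Q1 to Q3, a difference of 0.22 ± 0.06 (SE; limma, adjusted p = 0.322). Every preparation was higher in Q4, although the ranges of the 2 classes overlapped. Cox4i1 overlaps Emc8 on the other strand. Eif3i, a subunit of the initiation factor that binds the small ribosomal subunit, averaged 829 ± 95.5 FPKM in Q4 and 693 ± 51.2 FPKM in Q1 to Q3 and differed by 0.33 ± 0.10. Both genes were detected in all 60 Q4 cells.

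Further genes higher in 5 of 5 preparations were Ndufa2 of respiratory complex I (0.42 ± 0.13), Polr2h, a subunit common to the RNA polymerases that overlaps Clcn2 on the other strand (0.62 ± 0.20), Eif4ebp1, a repressor of cap-dependent translation (0.52 ± 0.18), the zinc finger genes Zfp760 (0.57 ± 0.16) and Vezf1 (0.74 ± 0.26), and Rpl26 (1.397 ± 0.34). Rpl26 was detected in 48 of 60 Q4 cells and 134 of 218 brighter cells. Eif4ebp1 had 459, 297, 353, 406 and 295.5 FPKM in Q4, against 312, 252.2, 148, 322 and 204 FPKM in Q1 to Q3, so that preparation 3 differed most. Among genes detected in at least 30 of the 60 Q4 cells, those with the widest positive difference were, after Rpl26 and beside Polr2h, both given above, Ino80c of the INO80 chromatin remodeller (0.72 ± 0.30), Uqcc (0.71 ± 0.32), Acat1, a mitochondrial acetyl-CoA acetyltransferase (0.67 ± 0.32), Gmeb1 (0.66 ± 0.26), Tfdp2, a partner of E2F factors (0.64 ± 0.29), Hras1 (0.64 ± 0.29), Rps4x (0.62 ± 0.34) and Prkrip1 (0.59 ± 0.29). Each was higher in 5 of 5 preparations and none passed adjustment (adjusted p 0.2295 to 0.531 over Rpl26 and these 8 genes; limma). In matched cells their differences lay between 0.58 and 1.09.

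The cytosolic ribosomal proteins as a list had a median difference of 0.11, beside -0.16 over all genes. Of 87 genes 20 (22.99% of the list) were higher and 3 (3.45%) lower in 5 of 5 preparations, and 62 had a difference above 0. Over all genes 1.37% were higher and 8.71% lower in 5 of 5. In the highest of 5 equal groups by mean level these shares were 3.35% and 7.56%. The median of the list was above 0 in each preparation (0.06, 0.09, 0.04, 0.13 and 0.18). It was -0.07 when cells were scaled to a common 75th percentile, where the all-gene median was -0.23. In matched cells the median of the list was 0.03, beside 0.01 over all genes. Rpl39 went the other way, with 146 ± 49.6 FPKM in Q4 and 241 ± 41.4 FPKM in Q1 to Q3, a difference of -0.98 ± 0.29, lower in 5 of 5 preparations and lowest in Q4 among the 4 quartiles in each. Many ribosomal protein genes have near-identical processed pseudogenes, so single values such as those of Rpl26, Rps4x and Rpl39 are uncertain where the quantifier split shared reads. Of 74 nuclear genes of the respiratory chain 10 (13.5%) were higher and 1 (1.35%) lower in 5 of 5 preparations. Their median was 0.02 (-0.17 at the 75th percentile scaling), and in matched cells 0.04, beside 0.01 over all genes. Of 75 mitochondrial ribosomal proteins 3 (4%) were higher and 4 (5.33%) lower, with a median of -0.12, close to the all-gene median.

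**Figure D3:**
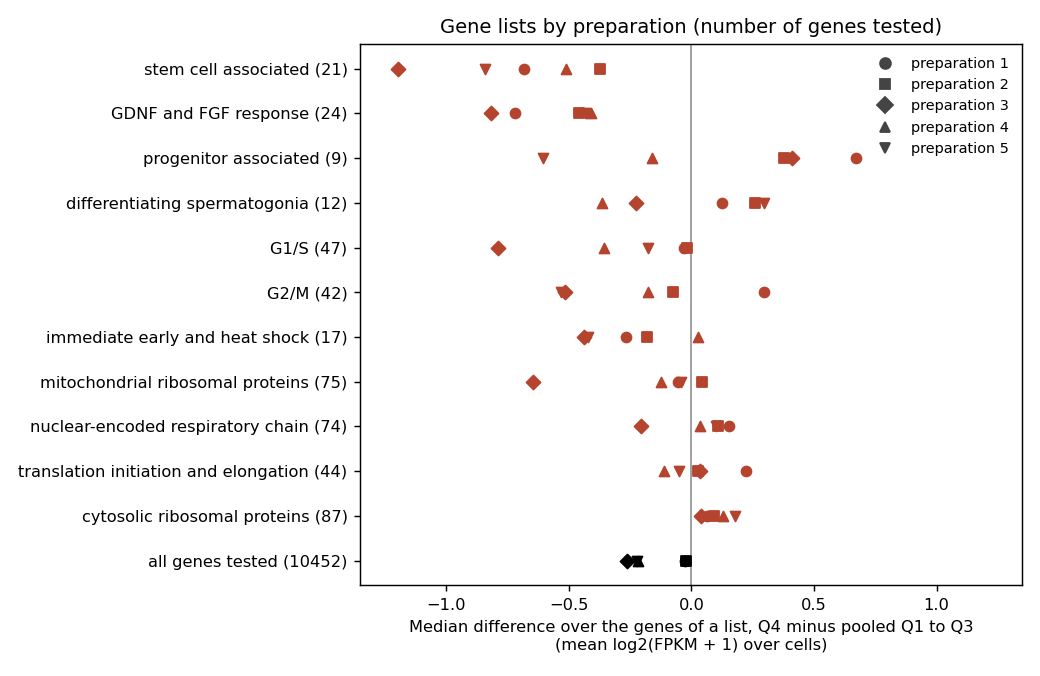
Median difference over the genes of each list, Q4 minus pooled Q1 to Q3, in mean log2(FPKM + 1) (x axis), with a symbol for each of the 5 preparations and, in black, the median of all 10452 genes. Stem cell genes lie at -1.20 to -0.37 and cytosolic ribosomal proteins at 0.04 to 0.18 (their overall median is -0.07 at the 75th percentile scaling), while the progenitor list spans 0 (-0.61 to 0.67).

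The differences were also set out by level. With all genes split into 5 equal groups by mean level, the median difference was -0.07, -0.13, -0.22, -0.27 and -0.17 from the lowest to the highest group, and in matched cells it lay between -0.0013 and 0.018 in every group. In the highest group 70 of 2091 genes (3.35%) were higher and 158 (7.56%) lower in 5 of 5 preparations. Only 27.9% of its genes had a difference above 0, and 56 of the 87 ribosomal proteins were in it. The share of cells with a gene in the second highest group was 73.2% in Q4 and 79.3% in Q1 to Q3, and in the highest group it was 92.1% in Q4 and 95.2% in Q1 to Q3. A common core was present throughout: 480 genes were detected in all 60 Q4 cells, 297 of them also in all 218 brighter cells, and 49 of the 480 were ribosomal proteins. The 3 most abundant transcripts of Q4 were Rpl41 (3445 ± 316 FPKM), Cox6a1 (3416 ± 2322) and Ubb (3109 ± 620), which ranked 3, 2 and 4 in Q1 to Q3. The part of abundance in the gene differences was not tested beyond the matched cells.

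Cell cycle genes mostly had differences below 0, as did 72.1% of all genes tested. The medians were lowest in preparation 3 for G1/S (median -0.79) and in preparations 3 and 5 for G2/M (-0.52 and -0.53). Of 47 genes of the G1/S phase 42 were below 0, and 6 (12.8%) were lower and 1 higher in 5 of 5 preparations, beside 8.71% of all genes lower. Their median was -0.35, and it was -0.18 without preparation 3. Rfc2, a clamp loader subunit for DNA replication, had 71.5 ± 33.9 FPKM in Q4 and 125 ± 22.4 FPKM in Q1 to Q3 (-1.42 ± 0.42), and Mcm5, of the replicative helicase, differed by -0.81 ± 0.26, lower in 4 of 5. Of 42 genes of the G2/M phase 34 were below 0, and 4 (9.52%) were lower and 1 higher, with a median of -0.27. In matched cells both lists lay slightly above the all-gene median (0.05 for G1/S and 0.08 for G2/M), so their direction relative to other genes turned round with the choice of cells. Of 20 p53 targets and cell death genes 2 were lower and 1 higher in 5 of 5 preparations, with a median of -0.14, near that of all genes. Apaf1, the scaffold of the apoptosome, was lower in 5 of 5 (0.456 ± 0.440 FPKM in Q4 and 3.80 ± 1.38 FPKM in Q1 to Q3).

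The remaining lists stayed near the median of all genes or had few members with 1 direction. Over all genes 1.37% were higher and 8.71% lower in 5 of 5 preparations, and the median was -0.16. Of 20 tested genes of meiotic prophase 0 were higher and 3 lower in 5 of 5 preparations (median -0.12), and of 20 genes shared by germ cells 1 was higher and 2 lower (median -0.13). Glycolysis had 0 higher and 2 lower of 19 (median -0.19), and cholesterol synthesis 1 higher and 2 lower of 20 (median -0.27). Translation initiation and elongation had 2 higher and 2 lower of 44 (median -0.03), and the proteasome 1 higher and 0 lower of 32 (median -0.05). The amino acid response driven by ATF4 had 0 higher and 1 lower of 21 (median -0.13), and DNA methylation 0 higher and 1 lower of 9 (median -0.08). Of the 9 helix-loop-helix partners of the ID proteins 4 had a difference above 0 and 5 below, and 0 were higher and 1 lower in 5 of 5. Their median of -0.43 depended on the setting, with 0.22 when the number of detected genes was a covariate, -0.10 from the log of mean FPKM and -0.06 in matched cells. Of 21 lists with at least 9 tested genes, 15 had a median of the other sign in at least 1 of 16 alternatives. The exceptions were the stem cell, GDNF and FGF, immediate early and heat shock, meiotic prophase, p53 and proteasome lists, which stayed below 0. This sign is not relative to the median of all genes, which was itself -0.16. Relative to that median, the meiotic prophase, p53 and proteasome lists lay above 0 (0.04, 0.02 and 0.10). The stem cell, GDNF and FGF, and immediate early and heat shock lists lay below it (-0.42, -0.28 and -0.16).

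Q3 is the nearest quartile in brightness, and setting Q4 against its 74 cells asked whether Q4 differs from its neighbour. limma again gave 0 genes at an adjusted p under 0.05 (0%). Unadjusted, 70 genes (0.67%) were higher and 682 (6.53%) lower at p under 0.05, and by sign 131 (1.25%) were higher and 672 (6.43%) lower in 5 of 5 preparations. Both comparisons use the same Q4 cells, and Q3 is contained in the pooled cells. Upf3b (-1.48), Cdh1 (-1.28), Snrpn (-1.40), Dusp6 (-1.08) and Gfra1 (-0.94) were lower than in Q3 in 5 of 5 preparations, and Rpl26 (1.44) and Eif3i (0.33) were higher in 5 of 5. Other genes named above were less separated from Q3. Smoc2 (-0.89) was lower in 4 of 5 and Rab4a (-0.48) in 3 of 5, and Cox4i1 (0.16), Ndufa2 (0.34), Polr2h (0.65) and Eif4ebp1 (0.31) were higher in 4 of 5. Uchl1 differed by 0.05 and was higher in 3 of 5. Q4 was the lowest of the 4 quartiles in all 5 preparations for 75 genes (0.718%), among them Cdh1, Egr1, Rfc2 and Rpl39. The same count was 4 for Q1, 2 for Q2 and 2 for Q3. Q4 was the highest in all 5 for 7 genes (0.067%), against 18 for Q1, 15 for Q2 and 6 for Q3. Those 7 included Bola2 (0.29 ± 0.11), Eif3i and Rps19 (0.19 ± 0.10, but -0.0038 at the 75th percentile scaling); these 3 were picked after their values were seen.

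Pairs of Q4 cells were less alike than pairs of brighter cells in 5 of 5 preparations, by little. The mean correlation between pairs of cells of the same preparation, across genes of log2(FPKM + 1), was 0.622, 0.604, 0.435, 0.560 and 0.553 in Q4, against 0.637, 0.608, 0.488, 0.596 and 0.582 in Q1 to Q3. It was lower in Q4 in 5 of 5 preparations, by the most in preparation 3. The difference was -0.0275 ± 0.0188 (SD, n = 5; exact sign permutation test, two-sided, p = 0.063, the smallest possible). It was -0.0235 against Q3 alone and -0.0036 ± 0.0107 in matched cells, where 3 preparations were lower and 2 higher (exact p = 0.4375).

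**Figure D4:**
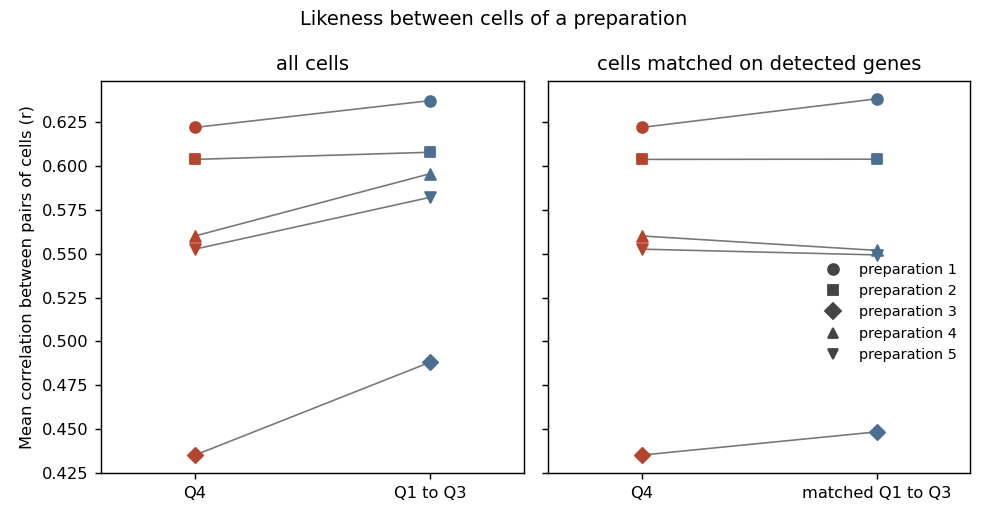
Mean Pearson correlation between pairs of cells of the same preparation (y axis) in Q4 and in Q1 to Q3, for all cells on the left and for cells matched 1 to 1 on detected genes on the right, with a symbol and a line for each of the 5 preparations. With all cells the Q4 value is below that of Q1 to Q3 in each of the 5 preparations, and with matched cells in 3 of 5.

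Spread over cells was larger in Q4 for most genes of the upper level groups. The SD over cells within preparations had a median of 1.90 in Q4 and 1.82 in Q1 to Q3 on the log2 scale. It was larger in Q4 for 62.7% of genes, for 82.6% of the highest level group and for 42.9% of the lowest. Sod1 (0.30), Rps3a1 (0.33), Prdx1 (0.35), Ftl1 (0.39), Ywhae (0.40), Psmb1 (0.41) and Cox4i1 (0.41) were among the genes that varied least over Q4 cells. The widest spread belonged to Snhg9 (3.60), Rhox10 (3.48), Mettl4 (3.42), Cbr4 (3.39), Churc1 (3.39), Ppil3 (3.39), Nanos3 (3.36) and Tmsb15b1 (3.35). Both rankings used the spread in Q4 cells alone and do not compare Q4 with brighter cells. Nanos3, a germ cell RNA-binding protein, was detected in 40 of 60 Q4 cells, with a median of 61.3 FPKM and a highest value of 1097 FPKM.

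Some genes detected in nearly all brighter cells were under an FPKM of 1 in a few Q4 cells. Hmox2, heme oxygenase 2, had an SD of 2.42 over Q4 cells and 1.04 over Q1 to Q3 cells, and was detected in 56 of 60 Q4 cells and 217 of 218 brighter cells. Polr1c, a subunit of RNA polymerases I and III, was detected in 57 of 60 Q4 cells and all 218 others (SD 1.90 and 0.74). Mrpl33 of the mitochondrial ribosome likewise was under an FPKM of 1 in 3 Q4 cells and in 0 others. The SD was also larger in Q4 for Prdx2 (2.79 in Q4 and 1.67 in Q1 to Q3), Cetn3 (2.003 and 0.90), Gsta4 (2.53 and 1.48), Gstp1 (2.56 and 1.53) and Cops5 (2.14 and 1.11). Spread of single genes was not computed in matched cells. The part of the lower number of detected genes in Q4 in these spreads was not tested.

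The number of stem cell genes varied from cell to cell. A Q4 cell had 2 to 17 of the 21 tested stem cell genes, with a median of 11, and a cell of Q1 to Q3 had 2 to 20, with a median of 14. The SD over cells of the mean log2 level of these genes was 0.70, 0.82, 0.87, 0.73 and 0.90 in Q4, against 0.40, 0.70, 0.84, 0.74 and 0.95 in Q1 to Q3. The spread was wider in Q4 in preparations 1, 2 and 3 and narrower in 4 and 5, and the difference of 0.0788 ± 0.141 was within the variation of preparations (exact sign permutation test, two-sided, p = 0.375).

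Sorting single cells by whether Gfra1 and Kit were detected divided Q4 further. Neither gene was detected in 21 of 60 Q4 cells (35%), against 18 of 218 brighter cells (8.26%). By preparation the share was 0, 13.3, 57.1, 46.7 and 42.1% of Q4 cells, against 0, 6.38, 16.7, 8.33 and 8.47% in Q1 to Q3. Preparation 1 had no such cell in either class and the other 4 had more in Q4, a mean difference of 23.9 ± 18.9 percentage points (SD, n = 5; exact sign permutation test, two-sided, p = 0.125). Because preparation 1 had no such cell, that p is the smallest the test could give here. In matched cells the difference was 18.98 ± 14.7 points, again with 4 preparations higher. With any FPKM above 0 taken as detection it was 11.2 ± 12.6 points, with 3 preparations higher. Cells with Gfra1 and without Kit were 9 of 60 in Q4 and 66 of 218 in Q1 to Q3, lower in 5 of 5 preparations (-15.8 ± 12.4 points, exact p = 0.063). Cells with Kit and without Gfra1 were 12 of 60 in Q4 and 30 of 218 in Q1 to Q3, higher in 3 preparations and lower in 2. Cells with both were 18 of 60 in Q4 and 104 of 218 in Q1 to Q3.

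**Figure D5:**
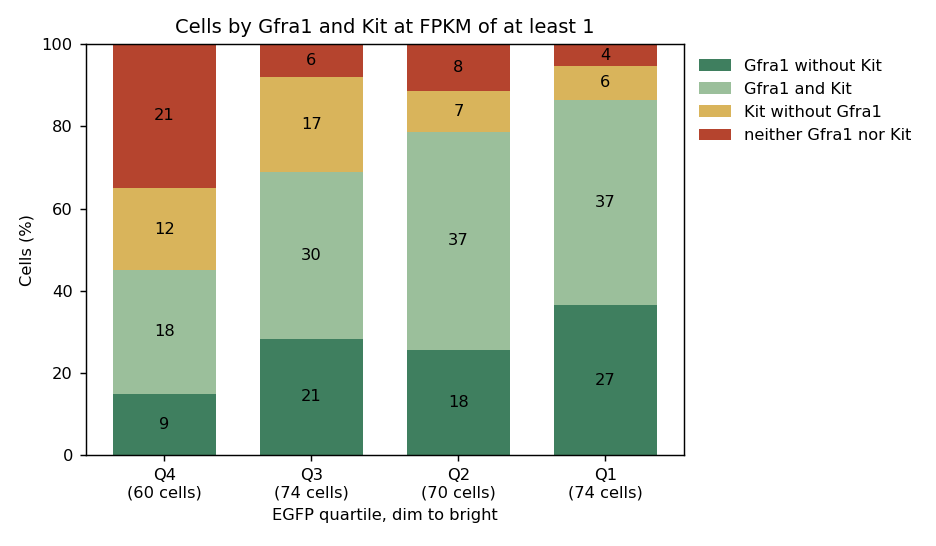
Share of the cells of each EGFP quartile (y axis, percent), ordered from dim to bright, by detection of Gfra1 and Kit, with the number of cells printed in each bar. Cells with neither gene are 21 of 60 in Q4 and 6, 8 and 4 in Q3, Q2 and Q1.

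The 21 Q4 cells with neither gene were germ cells by their markers. They carried 9 to 13 of 13 germ cell markers with a median of 13, and Sohlh1, Uchl1, Dazl, Ddx4, Sall4 and Dmrt1 were detected in all 21. Their estimated depth was 728419 fragments at the median, against 543950 in the other 39 Q4 cells, while their detected genes were 5214 at the median, against 6124. Both groups were pooled over preparations, and none of the 21 came from preparation 1. The mean depth of Q4 cells was 313379 fragments in preparation 1 and 710011 in preparation 5, with 7110 and 5330 detected genes. The part of the preparations in these medians and in the counts that follow was not tested. Stra8 was detected in 14 of the 21 and in 31 of the 39. Upp1 was in 16 of the 21, with a median of 95.2 FPKM, and in 19 of the 39, with a median of 0 FPKM. Id4 was in 4 of the 21 and in 12 of the 39, and Etv5 in 8 of the 21 and 27 of the 39. Neurog3 was in 2 of the 21 and 7 of the 39. These cells were grouped by their own RNA, so the values describe them and were not tested.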

How the data were processed

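The authors deposited 1 matrix of FPKM values for 23354 genes in 278 cells. The submitters' processing notes name the build mm10 (GRCm38) and the tools Cufflinks, TopHat, Picard and FastQC, without versions. Annotation, strand and the handling of shared reads were not stated. The unit was read from the quantifier and the values. Of the genes, 6247 were listed at 0 in every cell and 25 symbols had been turned into dates. Transcripts of EGFP, spike-ins and the mitochondrial genome were not analysed here. FPKM cannot be thinned to equal counts, so a matching of cells on detected genes was used instead. The quartile order is that of the design text (Q4 dim); a protocol passage numbers the dim cells differently. The number in the titles was taken as the preparation.

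Cells are not replicates. The mean over cells of log2(FPKM + 1), with a pseudocount of 1, was taken per preparation and class, which gave 10 means; differences on this scale understate the change of low genes. Genes that reached an FPKM of 1 in 10% or more of the cells were fitted with limma (3.58.1, R 4.3.3, trend = TRUE), weighted by number of cells, with preparation as a block and 4 residual degrees of freedom. Two-sided p-values had Benjamini-Hochberg adjustment over all genes and a threshold of 0.05. In limma each gene's variance was drawn toward a trend over all genes, with 11.48 prior degrees of freedom beside the 4 residual ones. p-values measure the spread between preparations, which for limma is partly borrowed from other genes. The labels do not say whether preparations were separate litters. Both classes of a preparation came from 1 suspension, and deviations from the class means correlated across genes at 0.209 to 0.359 within each of the 5 preparations and at -0.266 to 0.261 between the 20 pairs of different preparations. No pair of cells had identical values (highest correlation 0.692). Single values were tested by exact permutation of the signs of 5 differences. The fit was tested on these same cells, shuffled between classes within each preparation, with some genes shifted by set amounts in Q4. The shuffle takes away any systematic difference in detected genes between the classes. Depth was estimated from how low FPKM values step, over 2110 genes with 1 transcript of at least 1500 bases; in 262 of 278 cells, estimates from separate gene sets lay within 1.25-fold. Python 3.11.15 was used for the rest.

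The cells, gene lists and markers were chosen with earlier results of these data known. Genes are named if they passed adjustment; if not, as the 10 of smallest p in each direction with 1 sign in 5 of 5 preparations, the 10 widest positive differences among genes in at least 30 Q4 cells, at most 4 list members at unadjusted p under 0.05, preset markers, and 8 genes for each extreme of cell spread; a few that met these rules are not reported here. Alternatives were other pseudocounts, filters, scaling, weights and covariates, no block, 20 means, matched cells, Q3 alone and each preparation left out. Positions and overlaps are from GENCODE M21 (GRCm38), which matched 21695 symbols; Uqcc and Hras1 had no match. Of 47 genes searched, 32 had a RefSeq promoter.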

Additional observations from a re-analysis of the deposited data

Results flagged for a closer look

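In 5 of 67 sets of 5 preparation values, a single preparation lay far from the other 4 by Dixon's test, which flags about 1 set in 20 by chance. All 5 are differences of single genes in mean log2(FPKM + 1), Q4 minus pooled Q1 to Q3. In preparation 3, with 7 Q4 cells and the fewest detected genes, Rfc2 differed by -4.97, against -1.17 to -0.54 in the other preparations. Rpl39 differed by -3.40 in the same preparation, against -0.91 to -0.45. Eif4ebp1 differed by 1.57 there, against 0.25 to 0.50, and Acat1 by 2.85, against 0.23 to 0.57. In preparation 1, with 4 Q4 cells, Rab4a differed by -2.13, against -1.03 to -0.68 in the others. The direction in each of these genes was the same in the other 4 preparations.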

How the results depend on the processing

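The count of genes passing adjustment was 0 under all 16 alternatives of both comparisons, with a smallest adjusted p of 0.0617 (75th percentile scaling). Genes lower against pooled Q1 to Q3 at unadjusted p under 0.05 numbered 274 with no replicate block, 1592 with no filter, 227 with detected genes as a covariate and the replicate block, 1666 at the 75th percentile scaling, 667 from the log of mean FPKM and 288 in matched cells. Genes higher numbered 11, 109 (pseudocount 10), 171, 28, 161 and 288 under no block, pseudocount 10, the covariate, the scaling, the log of mean and matching. Leaving out 1 preparation gave 717 to 1127 lower and 48 to 90 higher. Genes lower in 5 of 5 preparations numbered 324 in matched cells; genes higher numbered 53 (scaling), 259 (log of mean) and 324 (matched). Against Q3, genes lower numbered 215 (no block), 226 (covariate), 1038 (scaling) and 348 (log of mean), or 486 to 701 with 1 preparation left out. Genes higher numbered 37, 115 (pseudocount 10), 150 (no filter), 200, 46, 176 and 106 (matched), or 59 to 109. The mean differences in detected genes and in likeness kept their direction in every alternative, with unpaired exact p of 0.563 and 0.516 when the replicate block was dropped. Against Q3, detected genes were lower in 4 of 5 preparations. Leaving out 1 preparation gave -566 to -389 detected genes and -0.0333 to -0.0211 in likeness. The spread of the stem cell score was -0.0149 in matched cells and 0.0225 to 0.110 with 1 preparation left out. Direction was checked for 47 of the genes named in the text. Apaf1 and the genes named only for their spread over cells were not among them. Of the 47, 3 changed direction in any setting: Kit (0.83 with the covariate, 0.0887 without weights, 0.049 in matched cells), Mcm5 (0.0205 with the covariate), and, at the 75th percentile scaling, Rps19 (-0.0038). Relative to all genes, G1/S turned to 0.014 (log of mean) and 0.0507 (matched), G2/M to 0.0423 (covariate), 0.117 (log of mean) and 0.0757 (matched), and immediate early genes ranged over -0.2009 to 0.0058 with 1 preparation left out, the highest without replicate 5. The share of cells with Kit and without Gfra1 (4.13 points) turned to -0.0902 in matched cells and -2.11 against Q3, and was 13.1 with any FPKM above 0 as detection; alternatives on these shares and the ranking of quartiles were chosen after seeing the data. The causes were not tested. Depth is only an estimate here, so no detection limit per gene can be given.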
